A study of Mus musculus with 7 samples.

Results

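The interval of mouse chromosome 4 described here runs from 145000000 to 147999999 (mm9) and holds a cluster of zinc-finger genes that includes Zfp600, Zfp534, Rex2 and many genes that carry only a Gm13 number. Every H3K9me3 peak that starts in the interval was taken, which gave 445 of the 23190 WT peaks (1.92%) and 114 of the 3775 KO peaks (3.02%). The interval was chosen by the number of peaks that these same lists hold there, so its counts and densities are descriptions and carry no test. H3K9me3, histone H3 trimethylated at lysine 9, was profiled by native chromatin immunoprecipitation and sequencing (ChIP-seq) in Setdb1 cKO iMEFs, an immortalised line of mouse embryonic fibroblasts. The WT library came from untreated cells. The KO library came from cells of the same line in which 4-hydroxytamoxifen (4OHT), given for 4 days, deletes Setdb1, and it was harvested on day 7. Both libraries therefore share the conditional line, which was recloned from single cells and chosen for a good response to 4OHT. The peak lists hold no expression values, so the fibroblast label could not be checked against markers. The series has 7 samples. The 5 others (2 H3K9me3 libraries and 1 input of foetal forebrain, and 1 input each of WT and KO iMEFs) entered no comparison. With 1 library per group there is no replicate error, and the intervals given in parentheses are 95% Wilson intervals that cover counting error only.

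Genes of the KRAB zinc-finger class encode DNA-binding repressors with long tandem runs of C2H2 zinc fingers, in which each finger folds around a zinc ion held by a pair of cysteines and a pair of histidines. Many of these proteins bind retroviral sequences and recruit Trim28 (KAP1), which in turn recruits Setdb1, a histone methyltransferase that places H3K9me3. The genes have multiplied by tandem duplication, so neighbours in a cluster are close copies of each other, and their own 3′ exons, which code for the fingers, are known to carry H3K9me3 in several mammalian cell types.

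The fingers could be read from the genome, and their letters are shown because the strongest peaks of the interval lay on them. The first 3 fingers of the Gm13242 run are at chr4:145291362-145291613 (mm9, plus strand, coding exon). The codons for the zinc-holding cysteines and histidines are in capitals, as in all sequences printed here.

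Gm13242: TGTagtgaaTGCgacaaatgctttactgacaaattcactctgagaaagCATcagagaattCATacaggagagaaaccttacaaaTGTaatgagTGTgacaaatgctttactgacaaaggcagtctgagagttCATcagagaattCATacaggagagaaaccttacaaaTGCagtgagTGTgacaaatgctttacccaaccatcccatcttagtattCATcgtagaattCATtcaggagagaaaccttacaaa

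The WT peak with the highest score of the interval started just before this stretch and ended inside the run of fingers. The KO peak of 65 bp that was called within it covered bases 10 to 74 of the stretch, which is most of the first finger. The first fingers of some related genes follow, each read 5′ to 3′ in the direction of its own strand, because the peaks of these genes are set beside the likeness of their coding sequence further on.

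Gm13251: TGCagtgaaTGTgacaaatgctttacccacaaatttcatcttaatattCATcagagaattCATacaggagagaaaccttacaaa
1700029I01Rik: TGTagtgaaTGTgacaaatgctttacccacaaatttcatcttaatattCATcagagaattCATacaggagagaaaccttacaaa
Gm13139: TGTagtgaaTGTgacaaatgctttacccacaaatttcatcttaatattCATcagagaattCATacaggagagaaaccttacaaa
Gm13157: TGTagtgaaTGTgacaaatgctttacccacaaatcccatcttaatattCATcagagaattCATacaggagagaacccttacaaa
Rex2: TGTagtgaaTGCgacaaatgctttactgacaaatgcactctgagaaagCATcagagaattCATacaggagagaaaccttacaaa
Gm13138: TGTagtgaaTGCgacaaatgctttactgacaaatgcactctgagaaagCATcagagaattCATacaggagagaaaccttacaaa
unannotated: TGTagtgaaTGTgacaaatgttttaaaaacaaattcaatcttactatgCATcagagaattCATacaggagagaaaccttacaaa
Zfp534: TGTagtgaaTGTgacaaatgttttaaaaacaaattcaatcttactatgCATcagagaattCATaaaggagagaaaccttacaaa

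These units of 84 bases lie at chr4:145731409-145731492 (minus strand, Gm13251), chr4:145418156-145418239 (plus, 1700029I01Rik, a pseudogene), chr4:146553000-146553083 (plus, Gm13139), chr4:147129701-147129784 (minus, Gm13157), chr4:145886567-145886650 (plus, Rex2), chr4:146431922-146432005 (plus, Gm13138), chr4:146363602-146363685 (plus, called unannotated because no gene is annotated on this strand) and chr4:147049513-147049596 (minus, Zfp534). Runs of at least 2 such units were found across the genome by the pattern of their codons, and runs within 1 kb of each other on the same strand were joined into what is called a coding block here. The interval held 24 of the 853 blocks of the genome, with 291 of 7760 fingers.

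H3K9me3 peaks were dense in the interval in both libraries. WT peaks stood at 158.9 per sequenced Mb, against 6.68 on the rest of chromosome 4 and 8.90 over the rest of the list. KO peaks stood at 40.7 per Mb, against 0.503 on the rest of the chromosome and 1.43 over the rest of the list. WT peaks covered 147.9 kb, or 5.28% of the sequenced bases, and KO peaks covered 15.1 kb, or 0.541%. The KO list therefore had 25.6 peaks per 100 WT peaks in the interval (20.9 to 31.5), against 7.53 on the rest of chromosome 4 (5.96 to 9.52) and 16.1 over the rest of the list (15.5 to 16.7). In a window of chromosome 10 (81000000 to 81999999) that also holds zinc-finger genes, 192 WT and 9 KO peaks were called, which is 4.69 per 100 (2.43 to 9.04).

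The order turned with the height of the peaks. With peaks of at least 15 fragments only, 115 WT and 18 KO peaks were left in the interval, which is 15.7 KO peaks per 100 WT peaks, while the rest of the list had 40.2. In sequence found once in the genome, the interval had 50 KO peaks per 100 WT peaks (27 against 54), and the rest of the list had 32.5.

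The peaks ended with the zinc-finger genes. These genes span 2.12 Mb, from the start of Gm13225 at 145100662 to the end of Zfp933 at 147222475, and 434 of the 445 WT and 110 of the 114 KO peaks lay in this span. The remaining 777.5 kb of the interval, with 23 protein-coding genes, held 0 WT and 0 KO peaks. Among the genes there are Fv1, a restriction factor against murine leukaemia virus, Mfn2, a mitochondrial fusion protein, Nppa and Nppb, which encode natriuretic peptides, Mtor, a growth-controlling kinase, and Tardbp, which encodes the RNA-binding protein TDP-43. The last WT peak inside started at 147209298 with a pileup of 9 fragments (the fragment coverage at its summit), and the next WT peak of the chromosome lay 1778.5 kb further on, at 148987855, with a pileup of 11. On the other side, the first WT peak inside started at 145019610 with a pileup of 13, and the last one outside at 144995534 with a pileup of 10. The 1 Mb before the interval held 7 WT peaks and the 1 Mb after it held 1. The first and last KO peaks inside started at 145005724 and 147138954, both with a pileup of 10. Outside, the nearest KO peak of the chromosome was at 130779523 with a pileup of 14, and there was none beyond the far edge.

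**Figure D1:**
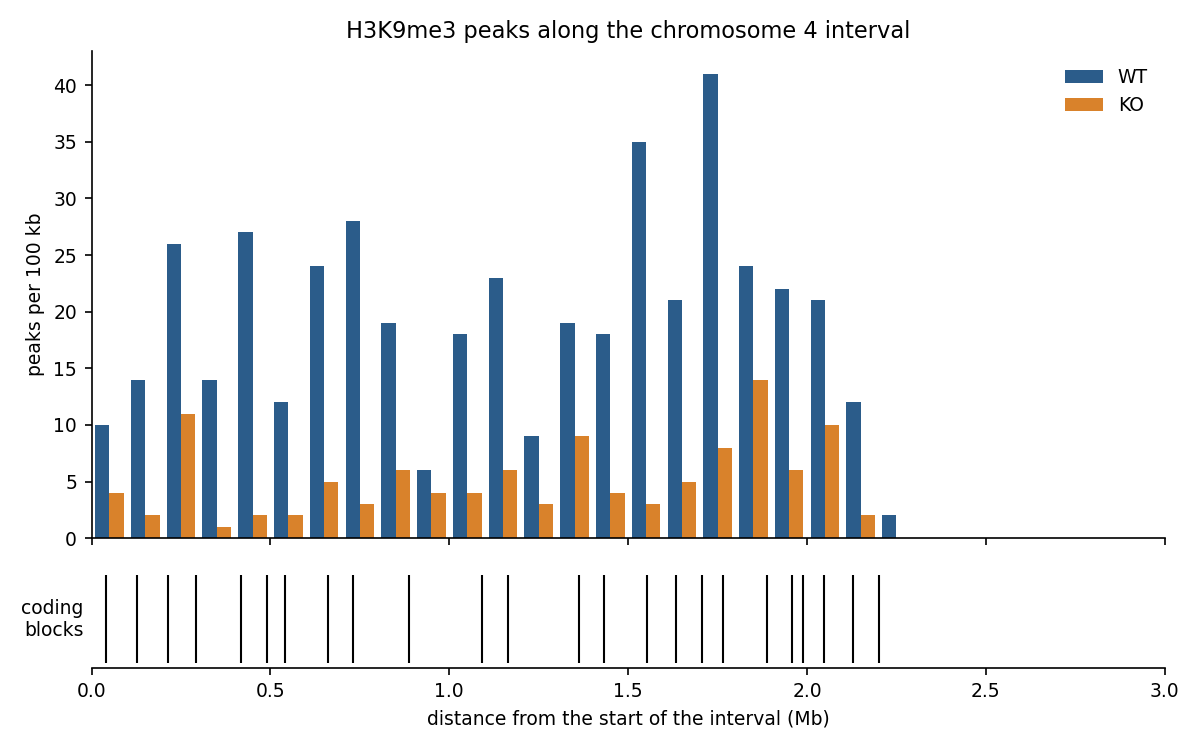
Number of H3K9me3 peaks called in WT (blue) and KO (orange) in each 100 kb of the interval (upper panel), against the distance from its start in Mb. Black ticks in the lower panel mark the 24 zinc-finger coding blocks. WT peaks reach 41 in 1 bin and KO peaks 14 in the next, and both lists are empty over the last 7 bins.

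Within the span, the counts varied from bin to bin and the lists did not peak together. The bin with the most WT peaks, from 1.7 to 1.8 Mb, had 41 WT and 8 KO peaks. The bin after it had 24 WT and 14 KO peaks, the most KO peaks of any bin. From 0.3 to 0.5 Mb there were 14 and then 27 WT peaks but 1 and then 2 KO peaks. From 0.2 to 0.3 Mb, the bin with the Gm13242 block, there were 26 WT and 11 KO peaks.

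The peaks themselves were narrow, with a tail of wide ones in WT. WT peaks of the interval were between 69 and 4056 bp wide, with a median of 188 bp against 134 bp over the rest of the list. KO peaks were between 64 and 628 bp wide, with a median of 97.5 bp against 83 bp. The pileup had a median of 12 fragments in WT (9 to 45) and 11 in KO (9 to 20). The lowest pileup in the lists, 9 fragments, made up 11.7% of the WT peaks of the interval and 43.7% of those elsewhere. The fold enrichment, the ratio of the pileup to the local background, did not follow this difference: its median was 4.60 in both libraries, and 4.63 in WT and 4.84 in KO over the rest of the lists. The local background, recovered from pileup and fold, was higher in the interval, with a median of 1.84 fragments in WT against 1.20 elsewhere and 1.59 in KO against 1.07. Peaks wider than 1 kb made up 23 of the 445 WT peaks (5.17%, 3.47 to 7.64), where the whole WT list had 1.55% and the chromosome 10 window had 23 of 192 (8.12 to 17.3%). None of the 114 KO peaks was that wide, which allows a share of up to 2.63%, and the whole KO list had 0.106%.

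The strongest and widest WT peaks lay on the coding blocks. A WT peak touched 19 of the 24 blocks (79.2%, 59.5 to 90.8), where 27.4% of all blocks of the genome had one and 25.9% of those outside the interval. On chromosome 10 the share was 16 of 20. The difference from other blocks stayed with peaks of at least 15 fragments (75% against 9.77% outside). It also stayed with scores at or above the WT median (79.2% against 22.6%). It was gone in 2 other subsets of the peaks. With a local background of at most 1.5 fragments, WT peaks touched 20.8% of the blocks of the interval and 21.4% of those outside. In single-copy sequence it was 12.5% and 12.6%. These 2 subsets leave out peaks but no blocks, and they cut the interval more. The background limit kept 36.4% of the WT peaks of the interval and 86.7% of those elsewhere, and single-copy sequence 12.1% and 28.7%. WT peaks covered 68.7% of the bases of the blocks of the interval, 23.4% of those of all other blocks and 87.0% of those in the chromosome 10 window. All bases were covered in 8 blocks and over 90% in 12. The 26 WT peaks over blocks were 5.84% of the WT peaks (4.02 to 8.42), on 0.899% of the bases of the interval, its peak-free end included. They held 29.1% of the length under WT peaks. Their median width was 1703.5 bp against 178 bp for the other WT peaks of the interval, their median pileup 22.5 against 12, and their median fold 6.57 against 4.56. Of the 23 wide peaks, 16 lay over blocks, and so did the 10 peaks with the highest scores (the score is the −log10 of the q-value). In the chromosome 10 window the pattern was similar, with 21 of 192 WT peaks over blocks (10.9%, 7.27 to 16.1). These 21 peaks held 42.2% of the length under WT peaks there, and 15 of the 23 wide peaks were among them. Their median width was 1760 bp against 208 bp for the other WT peaks of that window. Over the rest of the list, 342 of 22745 WT peaks lay over blocks (1.504%), with median widths of 496.5 bp against 132 bp.

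The 5 highest-scoring WT peaks were each on a different gene. The first, on the Gm13242 block (145291340 to 145291834), reached a pileup of 45, with a fold of 8.21 and a −log10 q of 23.2. The second, on Gm13251 (145729565 to 145732640), was 3075 bp wide with a pileup of 36 and the highest fold of the interval, 10.2. The third, on Gm13139 (146552150 to 146554718), was 2568 bp wide with a pileup of 31. The Gm13251 and Gm13139 blocks differ by 5 of 909 bases. The other two were on 2610036A22Rik (pileup 22, fold 9.94) and Gm13225 (pileup 25, fold 8.75). The KO list had a peak under the first of these 5 only.

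The 3 widest WT peaks were on Gm13138 (4056 bp), on the pseudogene 1700029I01Rik (3768 bp) and on Gm13151 (3366 bp). Each reached well past its block, since these blocks are 1245, 909 and 1161 bp long. Around the 24 blocks, read in the direction of the gene, the share with a WT peak in a window of 500 bp was 79.2% at the centre and 70.8% at 2 kb to either side. It was 37.5% at 4 kb upstream and 33.3% at 4 kb downstream, and 12.5% at 10 kb downstream. Around the 829 blocks elsewhere it was 24.4% at the centre and 5.91% at 2 kb downstream.

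**Figure D2:**
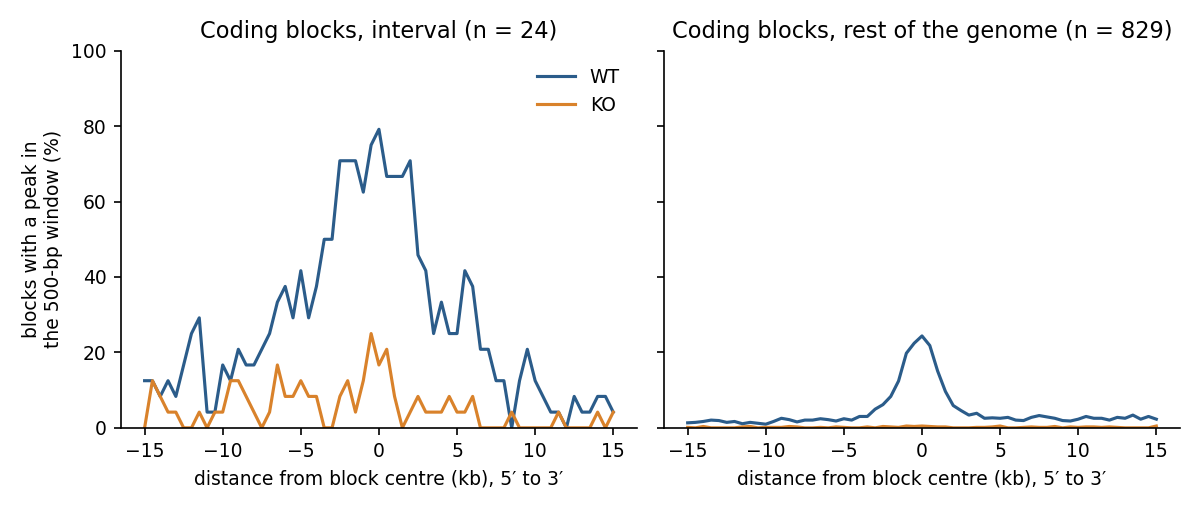
Share of zinc-finger coding blocks (%) with a WT (blue) or KO (orange) peak in each window of 500 bp, by distance from the block's centre in kb, for the 24 blocks of the interval (left) and the 829 blocks of the rest of the genome (right). The WT curve of the interval stays at 62.5% or above from −2.5 to 2 kb, and that of the rest of the genome is at 24.4% at the centre.

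KO peaks were also on the blocks, as small calls. A KO peak touched 11 of the 24 blocks (45.8%, 27.9 to 64.9), where 1.76% of all blocks of the genome had one. Outside the interval it was 4 of 829 blocks (0.483%, 0.188 to 1.23), and on chromosome 10 it was 0 of 20, which allows a share of up to 15%. So 11 of the 15 blocks with a KO peak in the genome were in the interval. KO peaks covered 7.08% of the bases of these blocks, against 68.7% for WT peaks. The 13 KO peaks over blocks were 11.4% of the KO peaks of the interval (6.79 to 18.5), where 4 of 3661 (0.109%) of the rest of the KO list lay over blocks. The median width of the 13 was 150 bp against 95 bp for the other KO peaks of the interval (169 bp against 83 bp over the rest of the list). Their median pileup was 12 against 11. Only 4 blocks kept a KO peak when those under 15 fragments were left out (16.7%), against 0% of the blocks outside the interval. It was also 4 when those with a local background over 1.5 fragments were left out, against 0.362% outside. This limit took the blocks with a WT peak from 19 to 5 (20.8%). With KO peaks in single-copy sequence alone it was 8.33%, against 0% outside.

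Both lists had a peak on 9 blocks, namely those of Gm13227/Gm13230, Gm13242, Gm13247, Rex2, Gm13051, Zfp600, Gm13138 and Gm13151 and the unannotated one. The 10 blocks with a WT peak alone were those of Gm13225, Gm13212, 1700029I01Rik, 2610036A22Rik, Gm13251, Gm13139, Gm13145, Gm13152, Gm13154 and Zfp933. The WT signal on these sets overlapped. The widest WT peak on a block had a median width of 2086 bp where a KO peak was present (973 to 4056) and 1918.5 bp where it was not (98 to 3768), and the highest pileup had medians of 23 (17 to 45) and 23.5 (11 to 36). The local background of the WT peaks had a median of 3.95 fragments on the first set (1.24 to 6.25) and 2.06 on the second (1.16 to 5.26), with overlapping ranges. The part of the background in which blocks had a KO peak was not tested.

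Of the remaining 5 blocks, 2 had a KO peak without a WT peak. Zfp534, a gene of 15 fingers, had a KO peak of 446 bp with a pileup of 18 (147048133 to 147048579) and another of 278 bp with a pileup of 11, which covered 40.6% of the block together, and 0 WT peaks. The nearest WT peaks lay on either side of the block, a peak of 437 bp with a pileup of 13 starting at 147046389 and a peak of 229 bp with a pileup of 10 starting at 147050614. A short block of 3 fingers in the lincRNA Gm17317 had a KO peak of 110 bp with a pileup of 11. No other block of the genome had a KO peak without a WT peak. The blocks of Gm13235, 2610305D13Rik and Gm13157 had a peak in neither list.

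**Figure D3:**
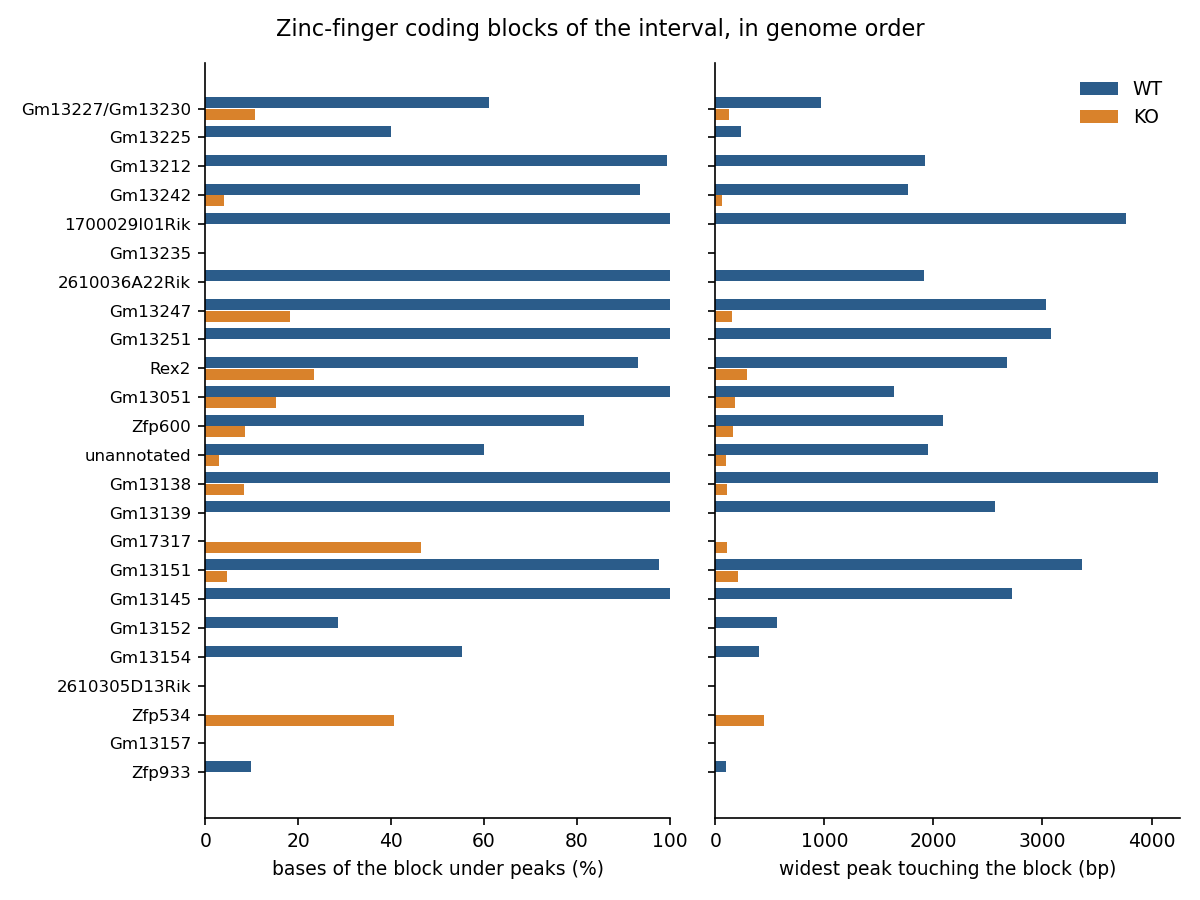
Zinc-finger coding blocks of the interval in genome order, with the share of their bases under peaks (left, %) and the width of the widest peak touching them (right, bp), in WT (blue) and KO (orange). Blocks such as Gm13251 and Gm13139 are fully covered in WT with no KO peak, and Zfp534 and Gm17317 have KO peaks alone.

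The identical blocks of Rex2 and Gm13138 both had peaks, and less similar copies did not always. The Rex2 and Gm13138 blocks are identical over 1245 bases. They had WT peaks with a pileup of 33 and 28 and KO peaks with a pileup of 16 and 13. Reads that fit several places were assigned at random to 1 of them by the authors, so the peaks of identical blocks are not separate observations. The 1700029I01Rik, Gm13251 and Gm13139 blocks differ from each other by 3 to 6 of 909 bases, and all 3 were fully under WT peaks with pileups of 27, 36 and 31 and had 0 KO peaks. The Gm13157 block, of the same length, differs from them by 117 or 118 bases (87.0 to 87.1% identity) and had no peak. The unannotated block differs from that of Zfp534 by 88 of 1245 bases (92.9% identity). It had 2 WT peaks, the wider of 1949 bp with a pileup of 17, and a KO peak of 97 bp with a pileup of 9, whereas Zfp534 had KO peaks only. Their first fingers, printed above, differ by 1 base.

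Most WT peaks of the interval had a relative there. Of the 445 peaks, 257 (57.8%, 53.1 to 62.3) had at least 1 other WT peak of the interval with at least 90% identity over at least 50% of the length, and these fell into 74 families. A copy of this likeness in the interval, with or without a peak, was found for 424 of the 445 (95.3%). Of 3551 such copies, counted for each peak, 27.6% held a WT peak and 6.08% a KO peak, so most copies held none. The largest family had 26 peaks at the 3′ parts of Gm13242, Gm13247, Rex2, Zfp600, Gm13138, Gm13145 and 2610305D13Rik, with 9 over coding blocks, and pileups between 10 and 45. The second had 25 peaks, among them those of 1700029I01Rik, 2610036A22Rik, Gm13251 and Gm13139, with pileups between 10 and 36. The third had 16 peaks, on Gm13225, Gm13051, Gm13151, Gm13152, Gm13154 and the unannotated block among others, with pileups between 10 and 25. These families differed in how many of their WT peaks overlapped a KO peak: 8 of 26 in the first (30.8%, 16.5 to 49.99), 1 of 25 in the second (4%, 0.710 to 19.5) and 5 of 16 in the third (31.3%, 14.2 to 55.6). The share was 8.76% over all WT peaks of the interval and 2.42% over the whole WT list. Peaks wider than 1 kb were 9 of 26, 5 of 25 and 3 of 16. Of all WT peaks, 5.17% in the interval and 1.55% in the whole list were that wide. Close copies can share reads placed at random, so the peaks of a family may not be independent, and the difference in overlap was not tested.

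The sequence under the peaks was of low copy number. The copy number of a peak was taken as the median count of its words of 31 bases in the genome. Of the WT peaks, 54 (12.1%, 9.42 to 15.5) lay in single-copy sequence, 353 (79.3%, 75.3 to 82.8) in sequence of over 1 to 10 copies, and 2 (0.449%) in sequence of over 1000 copies. Over the rest of the WT list these shares were 28.7%, 14.2% and 36.1%. The interval itself has 40.3% of its positions in single-copy sequence and 47.7% at over 1 to 10 copies. These positions include the 777.5 kb past the last zinc-finger gene, where no peak lay. The shares were not computed for the span of the genes alone. Of the KO peaks, 27 of 114 (23.7%, 16.8 to 32.3) were in single-copy sequence and 79 (69.3%, 60.3 to 77.0) at over 1 to 10 copies, against 57.9% and 23.2% over the rest of the KO list. Words that recur inside the interval underlay 371 WT peaks (83.4%, 79.6 to 86.5) and 82 KO peaks (71.9%, 63.1 to 79.4). They underlay 55.0% of the positions of the whole interval, its peak-free end included, so the peaks were not set against the span of the genes alone. In 308 of the 371 WT peaks (83.0%), all copies were inside the interval.

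**Figure D4:**
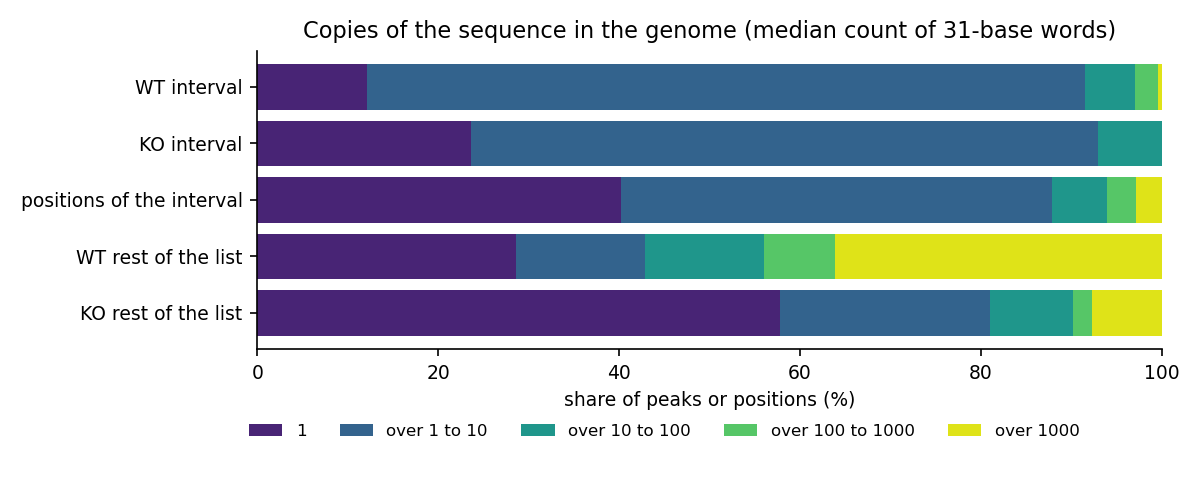
Share (%) of the WT and KO peaks of the interval, of the positions of the interval, and of the peaks of the rest of each list by copy number of the sequence in the genome. The class of over 1 to 10 copies makes up 79.3% of WT and 69.3% of KO peaks of the interval, and 14.2% of the WT peaks elsewhere.

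All 20 zinc-finger genes annotated in the interval had a WT peak in the gene body (83.9 to 100%), where 24.2% of all 627 zinc-finger genes of the genome had one. A KO peak was in 16 of the 20 (80%, 58.4 to 91.9), where 3.67% of all zinc-finger genes had one, and only 7 of the 607 genes outside the interval did. The 4 genes without a KO peak were 2610036A22Rik, Gm13139, Zfp933 and Gm13151, of which the last is annotated here by a record of 63 bp. The coding block of Gm13151, which reaches past this record, did have a KO peak, of 212 bp. Of the 25 other protein-coding genes of the interval, 2 had a WT peak (a second record named Gm13151, with 9 peaks, and Gm16503, with 1) and 0 had a KO peak, which allows a share of up to 12%. However, 23 of these 25 genes lie past the last zinc-finger gene, where neither list had a peak. These counts therefore follow where the peaks end and do not compare gene classes inside the cluster. The share over other protein-coding genes of the genome was not computed. The bodies of zinc-finger genes held 195 WT peaks (43.8%, 39.3 to 48.5) and 50 KO peaks (43.9%, 35.1 to 53.0) on 26.8% of the bases. The lincRNA genes, which are long and overlap zinc-finger genes, held 205 WT peaks (46.1%) and 55 KO peaks (48.2%) on 30.7% of the bases. Outside annotated genes there were 105 WT peaks (23.6%) and 23 KO peaks (20.2%), on 32.9% of the bases. All these base shares are of the whole interval. Its last 777.5 kb held no peak and no zinc-finger gene, so zinc-finger genes make up more of the part that carries peaks. The base shares within that part were not computed.

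Counts per gene also reflect the annotated length and overlaps between genes. Gm13242, annotated over 189.6 kb and overlapping Gm13212, had 37 WT and 12 KO peaks. 2610305D13Rik, which overlaps Zfp534, had 26 WT and 11 KO peaks. Zfp600 had 15 WT and 3 KO peaks, Gm13145 had 14 and 2, and Gm13247 had 12 and 3. Gm13212, Gm13138 and Gm13139 had 11 WT peaks each, with 1, 3 and 0 KO peaks. 2610036A22Rik and Gm13251 had 10 WT peaks each, with 0 and 1 KO peaks, and Gm13051 had 9 and 2. Gm13235 had 8 and 1, and so many WT peaks were also in Rex2 and Zfp534, with 3 KO peaks each. Gm13152 was the gene with nearly as many KO as WT peaks, 5 against 6. The other genes with KO peaks were Gm13225, Gm13154 and Gm13157, with 2 each. Per length, WT peaks covered 56.6% of the body of Rex2, a gene of 6.55 kb, and 33.8% of Gm13251, but 0.658% of Zfp933 at the end of the cluster. At the promoters, from 2 kb upstream to 0.5 kb downstream of a transcript start, 12 of the 20 genes had a WT peak, where 10.8% of all zinc-finger genes had one, and 5 had a KO peak, where 1.44% did.

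To ask which of the marks were found in both libraries, the lists were overlapped by at least 1 bp. In the interval 39 WT peaks (8.76%, 6.48 to 11.8) shared a base with a KO peak, where 2.42% of the whole WT list did. Of the KO peaks, 38 (33.3%, 25.4 to 42.4) shared a base with a WT peak, where 16.1% of the whole KO list did. Among KO peaks of at least 15 fragments this order turned, with 22.2% shared in the interval and 47.5% over the rest of the list. Of the 76 KO peaks that overlapped no WT peak, 32 (42.1%, 31.7 to 53.3) lay within 1 kb of a WT peak and 73 (96.1%, 89.0 to 98.6) within 10 kb. Their median distance to the nearest WT peak was 1198 bp and the largest 13875 bp, in an interval in which neighbouring WT peaks had a median gap of 1633.5 bp. Among WT peaks, the shared ones had a median width of 268 bp and a median pileup of 14, and the others 181.5 bp and 12. Among KO peaks the values were 127.5 bp and 12 fragments against 93 bp and 11.

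The overlap, which a wider peak reaches more easily because 1 bp is enough, moved with width and with the local background. It was 5.09% for WT peaks of up to 200 bp (12 of 236), 9.68% from there to 1 kb (18 of 186) and 39.1% above 1 kb (9 of 23, 22.2 to 59.2). Over the rest of the list these shares were 1.30%, 3.92% and 16.0%. By background it was 4.94% up to 1.5 fragments (8 of 162), 9.69% up to 3 (22 of 227) and 16.1% above 3 (9 of 56). Over the rest of the list it was 0.802%, 2.51% and 35.2%, so that the interval had the higher share in the first 2 classes and the lower share in the last. Among peaks of at least 15 fragments, 4.35% of the WT peaks of the interval overlapped a KO peak (1.87 to 9.78), against 17.1% over the rest of the list. The part of the background in the overlap was not tested beyond these classes.

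Where both lists had a peak, the KO peak was the smaller one at every coding block, and elsewhere the order varied. Over blocks there were 10 such WT peaks. They were 494 to 4056 bp wide (median 2017.5), and their KO partners were 65 to 288 bp wide (median 137.5), narrower in 10 of 10. The pileup was 17 to 45 in WT (median 23) and 9 to 20 in KO (median 12.5), lower in KO in 10 of 10. In 7 of 10 pairs the KO fold was the lower one, with medians of 6.34 in WT and 4.56 in KO. Elsewhere there were 29. WT widths had a median of 213 bp and KO widths 130 bp, and KO was narrower in 19 of 29. The pileup was lower in KO in 16 and higher in 8 of 29, with medians of 13 and 12, and 14 of the 29 KO folds were below the WT fold, with medians of 4.88 in WT and 4.94 in KO. Over the rest of the list too, the KO peak was narrower in most pairs, 422 of 522. Its pileup was lower in 362 of them and higher in 96. The KO fold was lower in 54.02% of those 522 pairs and in 53.85% of the 39 pairs of the interval. Pileups were not scaled to library size, since read totals are not part of the peak lists, so a difference in pileup between the lists may also hold a difference in depth.

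**Figure D5:**
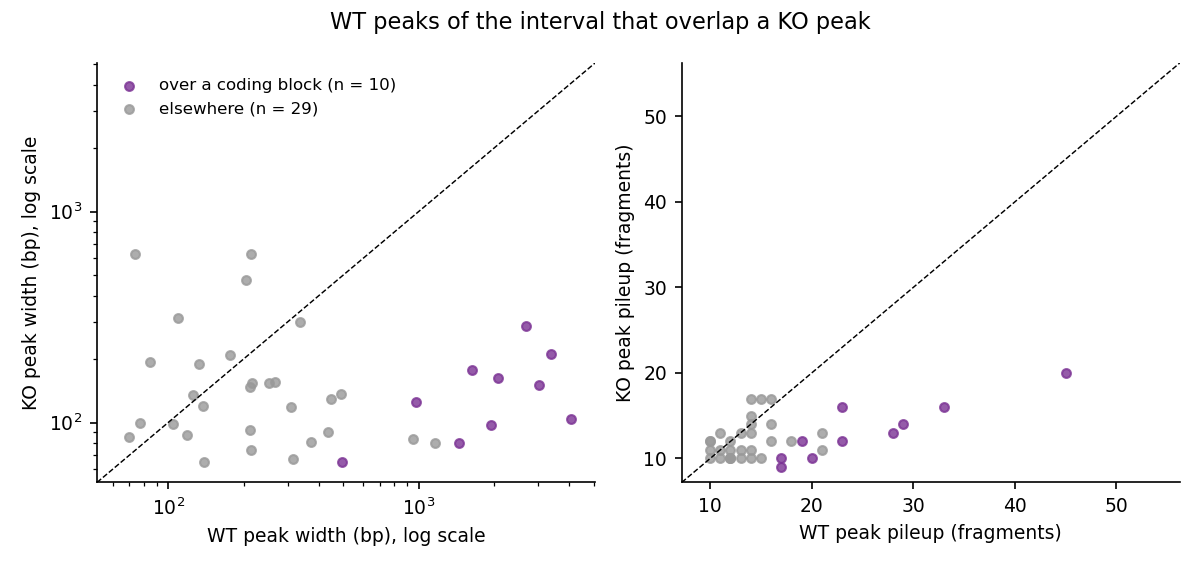
Width (left, bp, log scales) and pileup (right, fragments) of the 39 WT peaks of the interval that overlap a KO peak (x axis) and of that KO peak (y axis), over a coding block (purple, n = 10) or elsewhere (grey, n = 29). The dashed line marks equal values. All purple points lie below it in both panels.

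The examples on the blocks show the change in shape. At Gm13242 the WT peak of 494 bp with a pileup of 45 stood against a KO peak of 65 bp with a pileup of 20, the highest pileup and score (8.46) of any KO peak of the interval. At Gm13138 the WT peak of 4056 bp with a pileup of 28 stood against 104 bp and a pileup of 13. At Zfp600 a WT peak of 2086 bp with a pileup of 23 stood against 163 bp and a pileup of 16, and the KO fold of 7.06, the highest of the KO peaks here, was above the WT fold of 6.61. At Gm13051 the fold was 9.18 in WT and 4.40 in KO. At Rex2, WT peaks of 1448 and 2679 bp stood against KO peaks of 80 and 288 bp.

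The largest KO peak by width, 628 bp with a pileup of 17, was of the other kind. It lay in single-copy sequence in an intron of the lincRNAs Gm16889 and Gm17317 (146782044 to 146782672) and overlapped 2 WT peaks of 74 and 215 bp with pileups of 15 and 16. The KO peak with the third highest score, 154 bp wide with a pileup of 17 in an intron of Gm13242, overlapped a WT peak of 254 bp with a pileup of 14. Of the KO peaks that overlapped no WT peak, the one with the highest score (6.17) was 73 bp wide with a pileup of 13, at 145892761 outside annotated genes, and its nearest WT peak was 2456 bp away. A KO peak of 78 bp with a pileup of 16 in an intron of Gm13152 lay 1892 bp from the nearest WT peak, in single-copy sequence.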

How the data were processed

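H3K9me3 peaks of the WT and KO Setdb1 cKO iMEF libraries were analysed. The authors digested native chromatin with MNase, immunoprecipitated H3K9me3 with a polyclonal antibody, and aligned the single-end reads by Bowtie2 2.2.3 to mm9. Duplicates were removed with Picard, and a read fitting several sites was given to a random one of them. Peaks were called per library with MACS2 2.1.0.20140616, whose options are not given in the sources used here. The deposited pileup is a signal, the fragment coverage at the summit. Fold enrichment, also deposited, divides pileup + 1 by background + 1 (a ratio). As significance, the deposited values give the −log10 of a p-value and of a q-value per peak, and served only to rank or filter peaks. Whether starts count from 0 or 1 is not stated, which leaves 1 bp of uncertainty. Library read totals, and so depth, are unknown here.

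The local background was computed as (pileup + 1) / fold − 1. Genes were taken from GENCODE M1 on NCBIM37, the assembly of mm9, and all peaks ended within its chromosome lengths. Zinc-finger units were found by codons: Cys TGT or TGC, His CAT or CAC, spaced as C-x2-C-x12-H with the last His after 3 to 5 residues, in frame without stop, on both strands, at a step of 84 bases. A zinc-finger gene is protein coding and either has a block in its coding sequence or is named Zfp or Zbtb. Related peaks were found with blastn (BLAST 2.17.0). With 1 library per group no test was made. The interval, members and gene rules were chosen with earlier results of these data known. Named genes were those with the most WT peaks, up to 12, those with a KO peak, the 5 highest-scoring and 3 widest WT peaks, and up to 12 each of shared WT and of KO peaks. The pairs of like blocks, the KO peaks singled out and the genes past the cluster's end were chosen after their values were seen. Code recovered 200 of 200 overlaps, 200 of 200 finger runs and 100 of 100 copy numbers planted in simulated data. Software was matplotlib 3.10.9, numba 0.67.0, scipy 1.17.1, pandas 2.3.3 and numpy 2.4.6 in Python 3.11.15.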

Additional observations from a re-analysis of the deposited data

How the results depend on the processing

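No paired analysis was possible because WT and KO are represented by 1 library each. Of 55 recomputed values of the interval, 17 stayed within 1.5 times (counts) or within the Wilson interval (shares), and 38 moved. Cutting the interval to the span of the zinc-finger genes moved none of its 5 values. Scores at or above the WT median left 260 WT and 61 KO peaks, 49.6% of WT peaks in zinc-finger genes and 25% of blocks with a KO peak. A pileup of at least 15 left 115 and 18 peaks, 15.7 KO per 100 WT peaks, 4.35% of WT and 22.2% of KO peaks shared and 16.7% of blocks with a KO peak. Merging within 1 kb gave 269 WT peaks, 37.5 KO per 100 WT and 13.0% of WT peaks shared. Single-copy sequence alone left 54 and 27 peaks, 50 KO per 100 WT, 18.5% of KO peaks shared, 38.9% of WT peaks in zinc-finger genes, and 12.5% and 8.33% of blocks with a WT and a KO peak. A background of at most 1.5 fragments, an alternative chosen after seeing the data, left 162 and 51 peaks, 31.5 KO per 100 WT, 4.94% of WT and 15.7% of KO peaks shared, 3.70% of WT peaks over blocks, and 20.8% and 16.7% of blocks with a WT and a KO peak. An overlap of at least 50% gave 3.15% of WT peaks shared, and a distance within 1 kb 22.2% of WT and 61.4% of KO peaks, with 10.8% of WT peaks near a block. Genes named Zfp or Zbtb held 5.62% of WT peaks, and genes extended by 5 kb 58.0%. Sequence of over 10 and over 100 copies held 8.54% and 2.92% of WT peaks, and relatives at 80% and 95% identity were found for 66.3% and 46.5%. Apart from what each alternative leaves out by its construction, the cause was not tested. Blocks of at least 5 fingers, also chosen after seeing the data, gave 85.7% with a WT and 47.6% with a KO peak. Peaks start at 9 fragments, so weaker enrichment was not detectable at this depth.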
